A study of Caenorhabditis elegans with 5 samples.

Results

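The genes described here encode metal-handling proteins of the nematode Caenorhabditis elegans. These are the metallothioneins mtl-1 and mtl-2, the ferritins ftn-1 and ftn-2, and cdr-1 to cdr-6 of the cadmium-responsive cdr family. They were picked out by gene symbol in the platform annotation. Of the 10 symbols, 9 were matched to 12 probe sets out of 22625, and cdr-5 was not matched to a probe set and is not analysed here. They are 9 of the 17118 genes that the arrays name one by one, and 8 of them are among the 10271 genes past the level filter (a mean level over the arrays at or above the 40th percentile of genes). cdr-3 is the member below that filter.

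RNA from whole wild-type hermaphrodites was hybridised to 5 Affymetrix arrays. One culture was left unexposed and served as control. The others were each exposed for 24 h, to benzene, to toluene, to formaldehyde or to all 3 together (the BTF mix), and each culture has 1 array. All worms were young adults of 3 days from an age-synchronised culture raised on Escherichia coli OP50, and were kept unfed in a potassium and sodium chloride medium at 20 °C while exposed. The sources used here give no concentrations, and do not say whether the control was kept unfed in the same medium. As no group has replicates, no error or test can be had. Higher and lower describe these arrays only, and calls rest on a set size of 2-fold.

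Metallothioneins are small cysteine-rich proteins that bind zinc, cadmium and copper. In C. elegans mtl-1 is expressed in the pharynx and, under metal exposure, in the intestine, while mtl-2 is expressed in the intestine. Ferritins store iron in a protein shell, and worm ftn-1 is an intestinal gene whose transcript is low when iron is scarce, under control of the hypoxia factor HIF-1. cdr-1 encodes an intestinal lysosomal membrane protein that cadmium strongly induces, and it gave the family its name. The GATA factor ELT-2 drives mtl-1, mtl-2 and cdr-1 in intestinal cells, and the FOXO factor DAF-16 acts on mtl-1 and ftn-1.

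The metallothionein pair and the ferritin pair each split on the arrays with formaldehyde, while the cdr genes differed from control mainly in size. On the deposited scale, mtl-1 and ftn-1 were 2-fold to 3-fold lower than control on the arrays with formaldehyde, alone or in the mix. Their paralogs mtl-2 and ftn-2 were above control there, by less than 2-fold on the brightest probe set of each. A dimmer mtl-2 probe set passed 2-fold after the mix (log2 difference 1.18). cdr-4 was between 4-fold and 5-fold higher on the same arrays. After benzene cdr-4 was the one member 2-fold away from control, and after toluene no member was. Once arrays were scaled on poly-A spikes, some of these sizes moved. After the mix ftn-1 (-2.103) and, narrowly, mtl-1 (-1.59) then passed 3-fold, and cdr-4 (1.69) was under 4-fold. ftn-2 was then below control after the mix, and mtl-2 passed 2-fold after benzene (1.06).

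**Figure D1:**
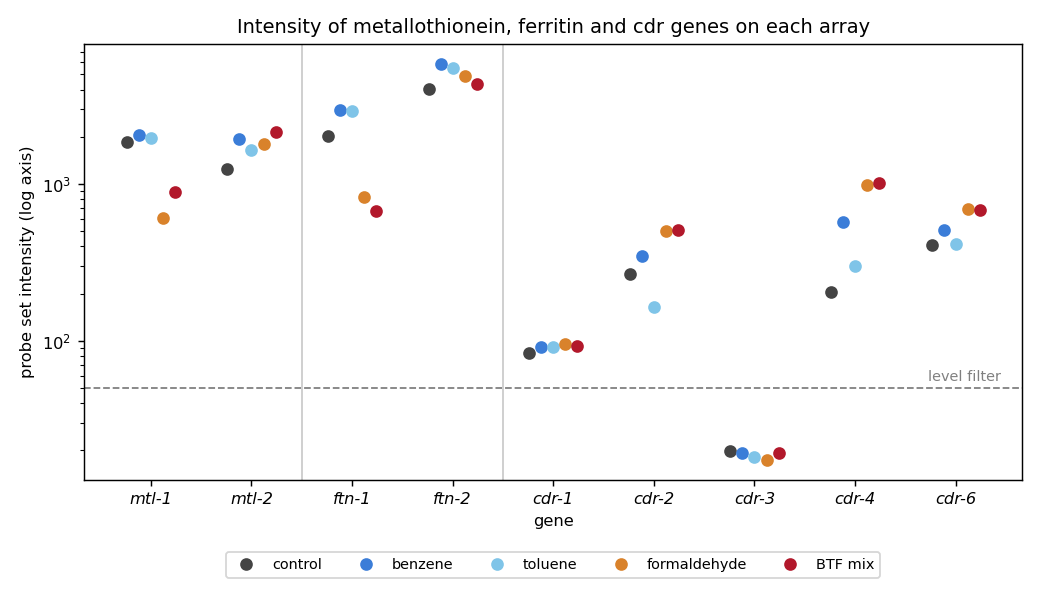
Probe set intensity (log axis) of the 9 matched genes on each of the 5 arrays, 1 point per array, with the dashed line at the level filter. mtl-1 and ftn-1 had their lowest values on the formaldehyde and BTF mix arrays, where cdr-2, cdr-4 and cdr-6 had their highest on the deposited scale.

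mtl-1 had an intensity of 1840.0 in control, 2049 with benzene, 1974 with toluene, 610.7 with formaldehyde and 886 with the mix. The formaldehyde array was the lowest and the mix array the next lowest, and the other 3 arrays lay close together. On the log2(intensity + 16) scale, used for every difference and fold here, mtl-1 differed from control by -1.57 after formaldehyde (2.96-fold lower) and by -1.04 after the mix (2.06-fold lower). The differences after benzene (0.15) and toluene (0.10) were small beside the range that held 95% of all genes past the filter (-0.43 to 0.70 for benzene, -0.43 to 0.49 for toluene).

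mtl-1 also differed between the arrays that hold formaldehyde. On the deposited scale it stood 0.53 higher after the mix than after formaldehyde alone, the rank of 19 from the highest among 10271 genes. This direction was not settled. With poly-A spike scaling mtl-1 was at -1.59 from control after the mix and at -1.45 after formaldehyde, so the mix was then the lower. For that pair of arrays 95% of genes lay between -0.25 and 0.24, and no member was 2-fold away (0.0389% of all genes were).

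mtl-2, the second metallothionein, had an intensity of 1241 in control, 1950.45 with benzene, 1658 with toluene, 1812 with formaldehyde and 2137 with the mix. All 4 exposed arrays were above control, as they were for 5 of the 8 members past the filter (mtl-2, ftn-2, cdr-1, cdr-4 and cdr-6) and for 22.3% of all genes. With poly-A spike scaling ftn-2 and cdr-1 left this pattern, as they stood below control after the mix. The log2 differences were 0.65 with benzene, 0.41 with toluene, 0.54 with formaldehyde and 0.78 with the mix, each under 2-fold. The gap between the paralogs' differences from control, mtl-2 minus mtl-1, was 0.49 after benzene and 0.31 after toluene, but 2.11 after formaldehyde and 1.82 after the mix.

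The mtl-2 values above are those of the brightest of its 3 probe sets. All 3 are marked s or x in their names, which means that some of their probes may also bind other transcripts. They gave the same direction in every exposure, with differences from 0.65 to 1.01 with benzene, 0.41 to 0.69 with toluene, 0.54 to 0.95 with formaldehyde and 0.78 to 1.18 with the mix. On the probe set marked s, mtl-2 reached 2-fold after benzene (1.01) and after the mix (1.18), and on the other two it did not.

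**Figure D2:**
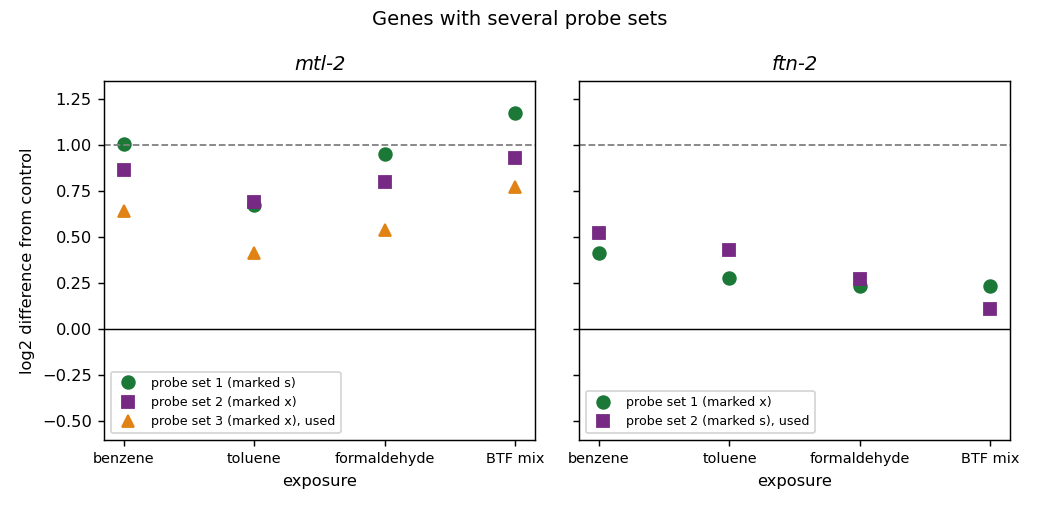
Log2 difference from control on each probe set of mtl-2 (3 probe sets) and ftn-2 (2 probe sets), 1 point per probe set and exposure, with the dashed line at 2-fold. The mtl-2 probe sets kept one direction and differed in size, and 1 of them passed 2-fold after benzene (1.01) and the mix (1.18).

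ftn-1 had an intensity of 2012 in control, 2981 with benzene, 2920.46 with toluene, 830.2 with formaldehyde and 675 with the mix. The aromatic compounds given alone had the highest values, control stood between, and both arrays with formaldehyde were lowest. Its log2 differences from control were 0.56 after benzene and 0.53 after toluene, but -1.26 after formaldehyde (2.396-fold lower) and -1.55 after the mix (2.94-fold lower). The single probe set of ftn-1 is marked s.

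ftn-2, which encodes the other ferritin and is expressed more widely in the worm, had an intensity of 4053 in control, 5845 with benzene, 5468 with toluene, 4907 with formaldehyde and 4370.0 with the mix. Its order over the exposures was like that of ftn-1, but every exposed array stayed above control under the deposited scaling and none reached 2-fold. The log2 differences were 0.53, 0.43, 0.27 and 0.11 in the order benzene, toluene, formaldehyde, mix. A dimmer second probe set gave 0.41, 0.28, 0.24 and 0.24 in the same order, and its formaldehyde and mix values were identical in the deposited table. The paralogs moved by nearly the same amount after benzene (ftn-2 minus ftn-1, -0.04) and toluene (-0.10) and were 1.54 apart after formaldehyde and 1.66 apart after the mix.

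On the deposited scale cdr-4, which cadmium induces, had the largest difference of the members after benzene, formaldehyde and the mix, and cdr-2 had it after toluene. Its intensity was 204 in control, 574 with benzene, 298 with toluene, 979 with formaldehyde and 1021 with the mix. All exposed arrays were above control, with toluene nearest to it and the formaldehyde and mix arrays close to each other. The log2 differences were 1.42 after benzene (2.68-fold), 0.51 with toluene (1.43-fold), 2.18 with formaldehyde (4.52-fold) and 2.23 with the mix (4.71-fold).

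Among the 10271 genes, cdr-4 ranked 29 from the highest with benzene, 225 with toluene, 67 with formaldehyde and 34 with the mix. It was the 1 member at least 0.5 above control on every exposed array, a pattern held by 1.88% of all genes. With a pseudocount of 64 its toluene difference was 0.43, which ends this call, and with the mean of probe sets mtl-2 joined it. The cdr-4 probe set is marked s, so a share of its signal may come from other transcripts.

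cdr-2 had an intensity of 268 in control, 349.7 with benzene, 165 with toluene, 501 with formaldehyde and 506 with the mix. It was the 1 member past the filter that was lower than control after toluene, at -0.65, and it was above control on the other exposed arrays by 0.36 (benzene), 0.86 (formaldehyde) and 0.88 (mix). Its difference after toluene ranked 57 from the lowest of 10271 genes. With poly-A spike scaling cdr-2 stood at 0.78 after benzene and 0.33 after the mix. The probe set of cdr-2 is unmarked.

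cdr-6 had an intensity of 405 in control, 508 with benzene, 414 with toluene, 691 with formaldehyde and 687 with the mix. On the deposited scale its highest values were those with formaldehyde and the mix, as for cdr-4, and the differences were smaller. The log2 differences were 0.32, 0.03, 0.75 and 0.74 in the order benzene, toluene, formaldehyde, mix. With poly-A spike scaling cdr-6 stood at 0.73 after benzene and 0.19 after the mix, so that order did not hold. cdr-6 stayed within 2-fold of control everywhere and its probe set is unmarked.

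cdr-1, the gene most tied to cadmium, was nearly level. Its intensity was 83.7 in control, 91.7 with benzene, 91.6 with toluene, 95.5 with formaldehyde and 93.2 with the mix, which is 0.11 to 0.16 above control on the log2 scale. Its range over the 5 arrays (0.16) was the smallest of the members past the filter. cdr-3 had intensities between 17.4 and 19.9, under the filter's intensity of 50.1, so its differences (-0.10 to -0.02) say little about its transcript.

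**Figure D3:**
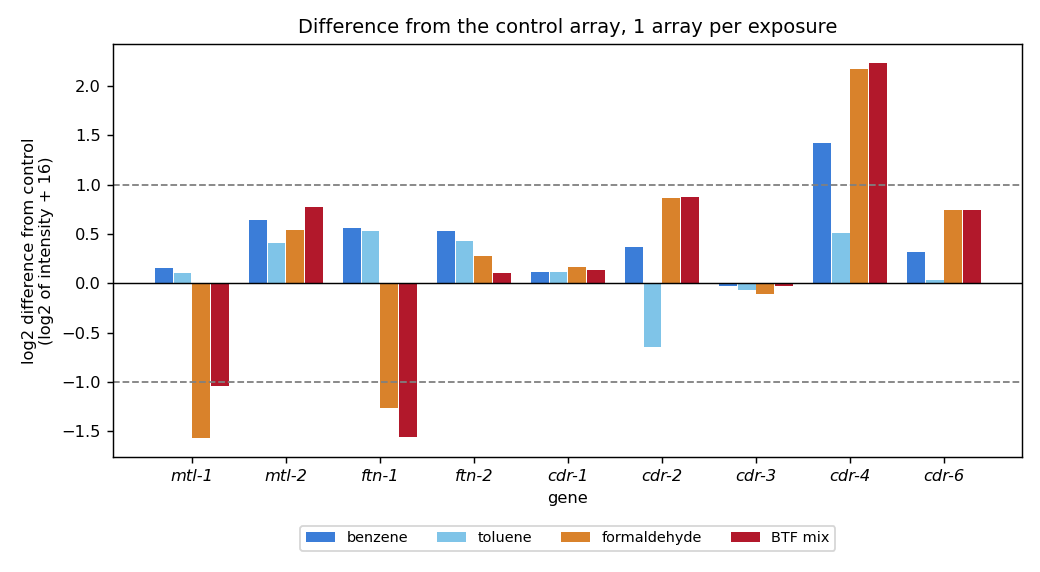
Log2 difference from control of each matched gene after each exposure, 1 bar per exposure from 1 array each, with dashed lines at 2-fold. mtl-1 and ftn-1 passed the lower line after formaldehyde and the mix, and cdr-4 passed the upper line after benzene, formaldehyde and the mix.

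The counts over all 8 members past the filter were as follows. After formaldehyde 1 was 2-fold higher (cdr-4) and 2 were lower (mtl-1 and ftn-1), where 4.55% of all genes were higher and 2.27% lower. The mix gave the same counts and the same genes, beside 4.34% of all genes higher and 2.31% lower. After benzene 1 was higher and 0 were lower, beside 1.2% and 0.175% of all genes, and after toluene 0 were either, beside 0.107% and 0.0974%. With 8 genes each count rests on 1 or 2 of them, and the 4 comparisons share the control array.

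The median difference of the 8 members was 0.45 with benzene, 0.26 with toluene, 0.41 with formaldehyde and 0.44 with the mix, where the median over all genes lay between -0.05 and -0.01. These medians rest on few genes and on the scaling, and over the settings run they lay between 0.23 and 0.86 with benzene, 0.07 and 0.41 with toluene, 0.27 and 0.54 with formaldehyde and -0.11 and 0.74 with the mix. The median absolute difference was 0.81 after formaldehyde and 0.83 after the mix, against 0.17 over all genes for each. It was 0.45 after benzene and 0.42 after toluene, against 0.12 and 0.11 over all genes. The size of the members' differences therefore stood above that of the typical gene after every exposure, not only on the arrays with formaldehyde. The genes compared were not matched to the members for level, so the part of level in this excess was not tested. The members' directions did not agree after formaldehyde and the mix, with 6 members above control and 2 below after each. On the deposited scale 8 of 8 were above control after benzene and 7 of 8 after toluene, most of them by less than 2-fold. Some of these differences were small, such as those of mtl-1 (0.15) and cdr-1 (0.11) after benzene. The share of all genes above control was not counted for single exposures, so the counts of direction have no share to be read against.

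**Figure D4:**
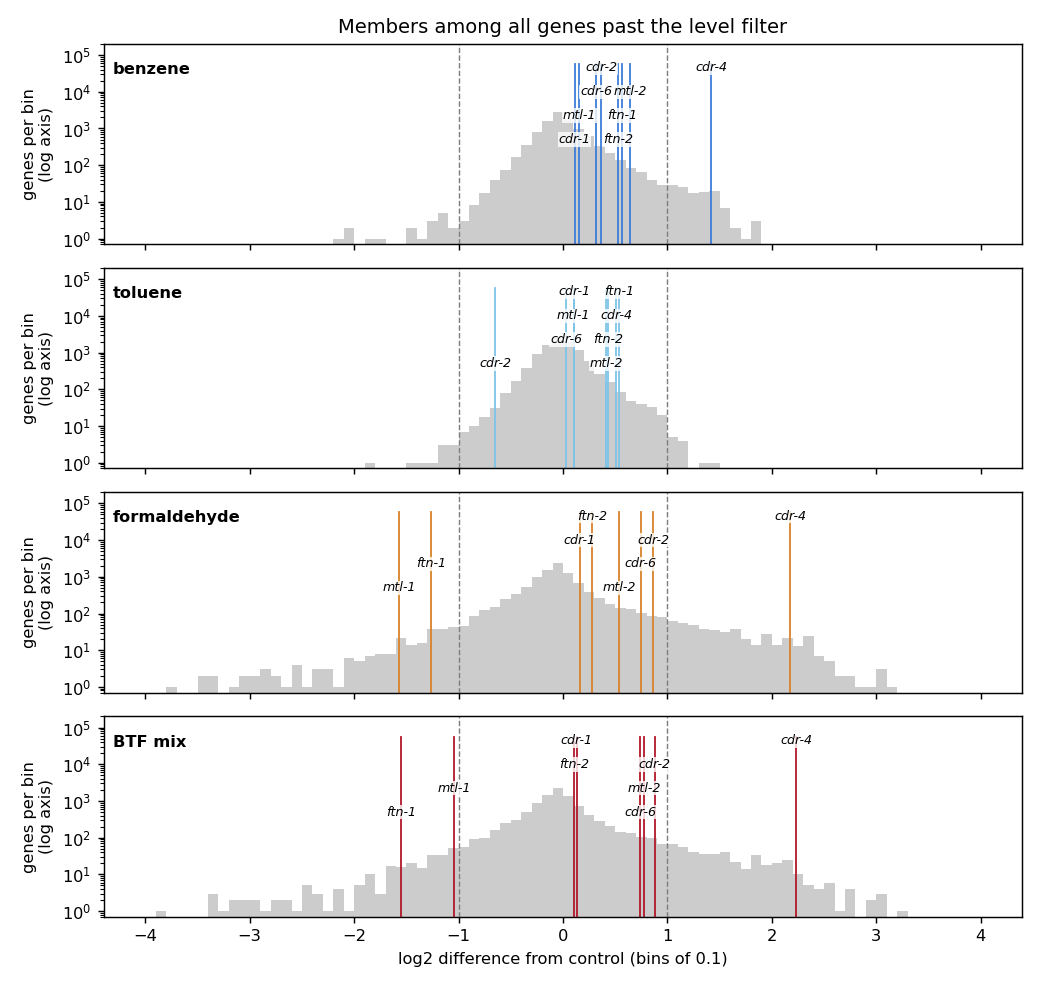
Histogram of log2 differences from control over all 10271 genes past the level filter (grey, genes per bin of 0.1 on a log axis), 1 panel per exposure, with a line at each of the 8 members past the filter and dashed lines at 2-fold. In the formaldehyde and mix panels mtl-1 and ftn-1 lay in the lower tail and cdr-4 in the upper tail.

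Comparisons between exposed arrays need no control array. The difference between formaldehyde and benzene and that between the mix and toluene share no array at all. ftn-1 stood at -1.82 (rank 20 from the lowest) for formaldehyde minus benzene and at -2.09 (rank 23) for mix minus toluene. mtl-1 had -1.72 (rank 26) and -1.14 (rank 148) in these comparisons. These 2 members were 2-fold lower in both, as were 1.11% of all genes.

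On the higher side no member was 2-fold away in both comparisons, as were 0.876% of all genes. cdr-4 stood at 0.76 for formaldehyde minus benzene and 1.72 for mix minus toluene, cdr-2 at 0.50 and 1.52, and cdr-6 at 0.43 and 0.71. mtl-2 was the 1 member whose sign differed (-0.11 and 0.36). The other 7 of 8 had 1 sign in both, where 71.2% of all genes did. With poly-A spike scaling mtl-1 (-2.02 and -1.81) and ftn-1 (-2.12 and -2.76) were again 2-fold lower in both, but cdr-2 was under 2-fold for mix minus toluene (0.85), mtl-2 was lower in both (-0.41 and -0.31) and so was cdr-1 (-0.25 and -0.65).

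**Figure D5:**
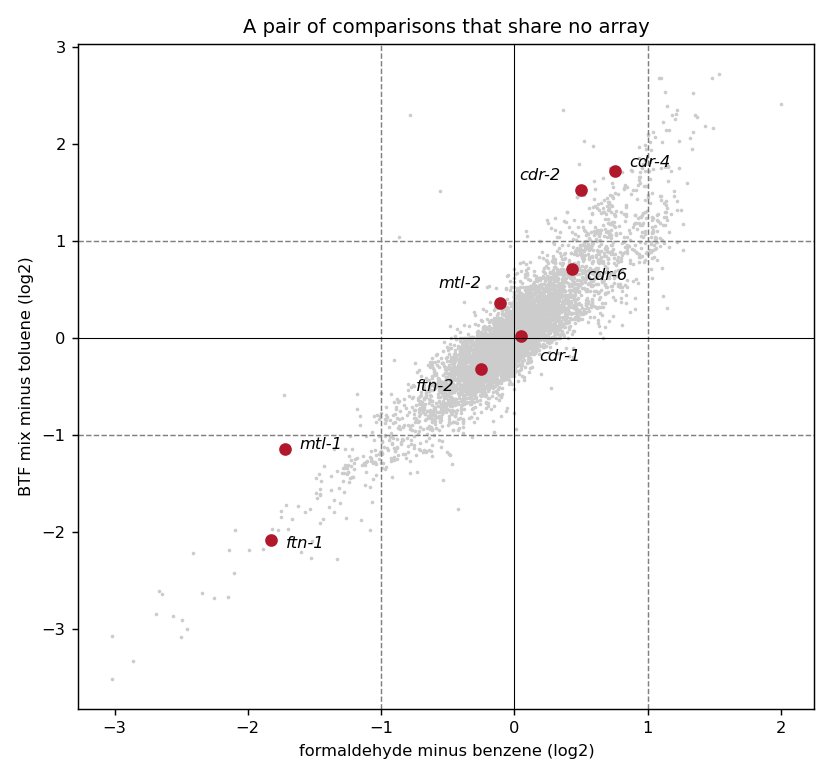
Log2 difference of formaldehyde minus benzene (x axis) against BTF mix minus toluene (y axis), 1 grey point per gene past the level filter and the 8 members in red, with dashed lines at 2-fold. ftn-1 and mtl-1 were 2-fold lower on both axes, while cdr-4 and cdr-2 were 2-fold higher on the y axis only, for cdr-2 not with poly-A spike scaling (0.85).

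Treating the arrays by whether formaldehyde was present, cdr-1, cdr-2, cdr-4 and cdr-6 were higher on both formaldehyde arrays than on the benzene and toluene arrays, as were 26.8% of all genes, and mtl-1, ftn-1 and ftn-2 were lower, as were 34.5%. The cdr genes did not reach a gap of 2-fold, and with poly-A spike scaling 0 of the 8 members, and 0.769% of all genes, were higher on both formaldehyde arrays. Under that scaling mtl-1, ftn-1 and ftn-2 were again lower, beside 58.4% of all genes. For mtl-1 and ftn-1 the gap exceeded 2-fold, as it did for 0.993% of all genes, and it did so with poly-A spike scaling too, beside 1.63%.

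Toluene is benzene with a methyl group. The benzene and toluene arrays were compared directly, at unknown concentrations. cdr-2 was 1.01 higher after benzene (2.02-fold, rank 17 from the highest of 10271 genes) and was the 1 member at 2-fold, beside 0.185% of all genes. It was under 2-fold with quantile normalization and with a pseudocount of 64 in place of 16. cdr-4 was 0.91 higher after benzene (rank 29), cdr-6 was 0.29 higher and mtl-2 0.23 higher. The difference was 0.05 for mtl-1, 0.03 for ftn-1, 0.10 for ftn-2 and 0.00 for cdr-1.

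cdr-4, cdr-6, cdr-2 and cdr-3 lie together on chromosome V, in that order in RefSeq's WBcel235 gene table, with hrg-2 and cdr-7 between cdr-4 and cdr-6. mtl-1, mtl-2, ftn-1 and cdr-1 lie elsewhere on chromosome V and ftn-2 on chromosome I. hrg-2 and cdr-7, which are not among the symbols used here, were not matched to a probe set. cdr-5 has no entry under that symbol in the gene table. It may be listed there under another symbol, so its place is not given here. The flanking genes were looked at after the members' values were seen. Upstream of cdr-4 in table order, K01D12.10 and K01D12.9 were below the level filter, with intensities of 30.6 to 35.2 and 37.2 to 41.5. On the side of cdr-3, C54D10.3 stood between 0.05 and 0.17 above control after each exposure. Next to it, C54D10.4 was below the filter, with differences of 0.43 after formaldehyde and 0.26 after the mix. After formaldehyde and the mix the differences of cdr-4, cdr-2 and cdr-6 were larger than those of these 4 neighbours. Only C54D10.3 among these neighbours was past the filter, so the comparison rests on that gene. cdr-3, in the same group and below the filter, stood at -0.10 and -0.02.

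The genes most like a member over the 5 arrays were taken as those with the smallest root mean square log2 difference, each gene centred on its own mean, for the 4 members past the filter that ranged over 2-fold or more. For cdr-4 they were gst-36, a glutathione S-transferase gene (0.09), nas-20, an astacin protease gene (0.10), and ugt-46, a UDP-glucuronosyltransferase gene (0.11). cdr-2 had C06B3.7 (0.10), nep-22 (0.11), of the neprilysin metallopeptidase family, and T16G1.6 (0.15). These 3 were also below control after toluene, at -0.46, -0.42 and -0.42. As the toluene array was among the 5 used to pick them, this is not a separate observation. T16G1.6 was under the filter's intensity in control (49.99) and with toluene (33.5), so its toluene difference has little weight.

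mtl-1 had C33D9.6 (0.16), the laminin gene lam-3 (0.16) and ham-1 (0.16) nearest. C33D9.6 (48.3) and lam-3 (49.7) were just under the filter's intensity with formaldehyde, so their likeness to mtl-1 rests partly on dim values. Nearest to ftn-1 were cpg-24 (0.19), T09B4.5 (0.20) and dbd-2 (0.21). The genes nearest to ftn-1 were thus further from it than those nearest to cdr-4 were from cdr-4. cpg-24 was under the filter's intensity with formaldehyde (22.2) and the mix (20.1), so its likeness to ftn-1 rests partly on dim values.

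Other genes of metal handling were mostly near control. Of 12 iron handling genes past the filter, 1 was 2-fold higher on the benzene, formaldehyde and mix arrays and 0 were lower. It was hrg-7, which encodes a secreted aspartic protease homologue in heme signalling between tissues, with an intensity of 210.4 in control, 500.3 with benzene, 276 with toluene, 1137 with formaldehyde and 1279.6 with the mix. aco-1, the cytosolic aconitase gene related to mammalian iron regulatory proteins, had 0.36, 0.18, 0.72 and 0.75 in the order benzene, toluene, formaldehyde, mix. hrg-1, a heme transporter gene, had 0.43, 0.56, 0.52 and 0.70. The list median lay between -0.01 and 0.02.

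Zinc transport genes had 0 of 16 at 2-fold after any exposure. cdf-2, which encodes an intestinal zinc transporter of gut granules, was lower after formaldehyde (-0.85) and the mix (-0.86), zipt-13 was higher by 0.85 and 0.74, and zipt-2.1 stood at -0.47 and -0.67. Copper handling genes had 0 of 6 at 2-fold, with cox-17 at 0.40 and 0.44, sod-1 at 0.33 and 0.28 and cutc-1 at -0.24 and -0.11 after formaldehyde and the mix.

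Of 14 cadmium and heavy metal defence genes past the filter, 3 were 2-fold higher after formaldehyde and after the mix and 0 were lower. Besides the heat shock genes hsp-70 and hsp-16.2, this was pgp-1, an ABC transporter gene, with an intensity of 26.7 in control, 59.2 with benzene, 27.5 with toluene, 89.3 with formaldehyde and 134.9 with the mix. Its control and toluene values lie under the filter's intensity, so it passed the filter through the arrays where it was high, and its call has little weight. The list median was 0.02 after formaldehyde and 0.04 after the mix.

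Among 12 regulators past the filter 0 were 2-fold away after any exposure. rhy-1, a negative regulator and target of HIF-1, was the furthest, at 0.39, 0.31, 0.86 and 0.71 in the order benzene, toluene, formaldehyde, mix. mdt-15, a Mediator subunit gene, had -0.51 and nhr-49, a nuclear receptor gene of fat metabolism, -0.50 after formaldehyde. hif-1 and egl-9 were not matched to a probe set and are not analysed here.

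DAF-16 targets other than the members had 1 of 10 genes 2-fold higher after formaldehyde and after the mix, and 0 lower. It was the lysozyme gene lys-7, at 1.46 and 1.37, while the small heat shock gene hsp-12.6 stood at -0.86 and -0.69 and dod-24 at 0.68 and 0.65. Fasting response genes had 4 of 17 higher and 3 lower after formaldehyde and after the mix. Among them fmo-2 and fat-5 passed 2-fold in every exposure in opposite directions, and lipl-2, a lysosomal lipase gene, stood at -1.26 and -1.58.

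Several members are intestinal genes, and markers of intestine and sperm also differed between these arrays. Of 19 intestine markers past the filter, 2 were 2-fold higher after benzene, 0 after toluene and 7 each after formaldehyde and the mix, 0 were lower, and act-5, pho-1 and elo-5 had the largest differences. pho-1, at 34.1 in control and 31.4 with toluene, passed the level filter only through the other 3 arrays. Their summed intensity was 27874 in control, 35020.5 with benzene, 29142 with toluene, 42814 with formaldehyde and 41956 with the mix. In whole animals, fewer cells of a type and less RNA per cell cannot be told apart. mtl-1 and ftn-1 were lower on the arrays where this sum was highest, and cdr-4 was higher there.

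Sperm transcripts moved on the same arrays. Of 21 major sperm protein genes measured, which share near-identical sequence and so are not separate measurements, all 21 were 2-fold higher on the benzene, formaldehyde and mix arrays and 2 were with toluene, with a summed intensity of 25754 in control, 68035 with benzene, 47972 with toluene, 115844 with formaldehyde and 101500.0 with the mix. Muscle (6 genes), neuron (5) and germline and oocyte (7) markers had 0 at 2-fold after any exposure, with medians between -0.27 and -0.02. The lowest intensity of any probe set lay between 9.1 and 9.3 on each array, so a marker above 0 does not show that its transcript was present. The part of tissue markers in the members' differences was not tested.

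The direction of small differences depends on how arrays are set to each other. Scaled instead on the 24 poly-A spike probe sets, the all-gene median became 0.41 with benzene, 0.11 with toluene, 0.07 with formaldehyde and -0.59 with the mix. Under that scaling 185 genes were 2-fold higher and 1037 lower after the mix, and 361 higher and 7 lower after benzene. mtl-1 (-1.45 and -1.59), ftn-1 (-1.14 and -2.103) and cdr-4 (2.29 and 1.69) kept their direction and their side of 2-fold after formaldehyde and the mix. ftn-2 and cdr-1 turned below control after the mix (-0.44 and -0.42), and mtl-2 passed 2-fold after benzene (1.06).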

How the data were processed

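The authors deposited 1 linear intensity value per probe set and array. Per the submitters' processing notes, RMA, Affymetrix Expression Console 1.1 and MAS5 were used, with no role given for each. No source used here says how arrays were set to each other. Values were tied between arrays for 47.2% of the probe sets. Per the labels' protocols, 300 ng of RNA went into a labelling kit that reads transcripts from their 3' end.

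Genes were named from the platform annotation through Entrez identifiers. The 20766 probe sets with 1 gene were used, and 887 with several genes, 895 with none and 77 controls were left out. A gene took its brightest probe set by mean log2(intensity + 16). Genes entered counts if that mean reached the 40th percentile (6.05). No test was possible, so differences were described beside all genes, with calls at 2-fold. The members and gene lists were chosen with earlier results of these data known. Named were all members, up to 3 genes per list with the largest difference in any exposure, and the 3 nearest genes of each member that ranged over at least 1 log2 unit. Flanking genes were added after values were seen. Calling was tested on simulated data. Python 3.11.15 and pandas 2.3.3 were used. The number of arrays limits the precision.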

Additional observations from a re-analysis of the deposited data

How the results depend on the processing

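No paired analysis was possible because each group has 1 array. The replicate number in the labels is 1 throughout, and leaving out a replicate leaves no comparison. Of 236 recomputed differences of single members from control, 229 kept their direction and their side of 2-fold. The other 7 were cdr-3, ftn-2 and cdr-1 values within 2-fold that turned sign, and mtl-2 after benzene, which passed 2-fold with poly-A spike scaling (1.06). Some of the 229 could not change. A gene with 1 probe set keeps its value under the mean of probe sets, and an unmarked gene keeps it without the marked probe sets. Differences between exposed arrays, some of which moved with poly-A spike scaling, are not in this count. Without probe sets marked s or x, which leaves 4 members past the filter, 0 were 2-fold away after benzene and 1 (mtl-1) after formaldehyde and after the mix, because ftn-1 and cdr-4 have only marked probe sets. With poly-A spike scaling 2 members were 2-fold away after benzene (3.58% of all genes) and 2 for benzene against toluene (0.652%). With a 1.5-fold threshold it was 2 after benzene, 1 after toluene (cdr-2), 5 after formaldehyde, 6 after the mix and 2 for benzene against toluene, beside 4.39%, 2.36%, 15.1%, 15.1% and 1.18% of all genes. cdr-2 fell under 2-fold for benzene against toluene with quantile normalization and with a pseudocount of 64, so 0 members were left there. Over the settings run, the difference of mtl-1 lay between -1.59 and -1.45 after formaldehyde and between -1.59 and -1.003 after the mix, that of ftn-1 between -1.28 and -1.14 and between -2.103 and -1.49, and that of cdr-4 between 1.96 and 2.29 and between 1.69 and 2.32. The median over members after the mix had no settled direction, as poly-A spike scaling turned it to -0.11. The settings for comparisons between exposed arrays and for patterns over arrays were chosen after seeing the data. Dim values limit cdr-3, and no detection calls were used here.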

Other observations

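ftn-1 combined a higher level after benzene and toluene with a lower level after formaldehyde and the mix. Thresholds for this pattern were set after its values were seen. Of 10271 genes, 4 were 2-fold below control on both formaldehyde arrays and at least 0.25 above control on the log2 scale on both the benzene and the toluene array. They were ftn-1, cpg-24, dbd-2 and spp-31. cpg-24 was under the filter's intensity with formaldehyde (22.2) and the mix (20.1), so its 2-fold calls have little weight. With the step above control set to 0.5, ftn-1 was the 1 gene left. All of these differences use the same control array.

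C54D10.4, the second gene past cdr-3 in the table order of chromosome V, had intensities of 23.4 in control, 24.2 with benzene, 27.7 with toluene, 37.0 with formaldehyde and 31.1 with the mix.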
